A study of Fundulus heteroclitus with 36 samples.

Results

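The dose series of the New Bedford Harbor (NBH) embryos comprised 18 of the 36 brain RNA libraries of the study, taken by their titles: 6 of NBH Control (0 ng/L), 6 of NBH PCB40 (40 ng/L) and 6 of NBH PCB400 (400 ng/L). Each library held the whole brain of 1 Atlantic killifish (Fundulus heteroclitus) embryo, sampled 17 days after fertilization. PCB126, a dioxin-like polychlorinated biphenyl, had been given to the PCB40 and PCB400 embryos directly, from day 1 to day 7 after fertilization. The design text draws the PCB126 embryos from parents on a salmon diet low in methylmercury, which it also calls the reference diet. The sample labels give no diet, so that the Control embryos shared it rests on that wording alone. The labels name no clutch or parent, so p-values measure the spread between these 18 embryos. In whole-brain RNA, fewer cells of a type and less RNA per cell cannot be told apart.

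PCB126 binds the aryl hydrocarbon receptor (AHR), which pairs with ARNT in the nucleus and switches on genes such as CYP1A, a monooxygenase of foreign-compound metabolism, and ahrr, a repressor of the same receptor. In fish, ahr2 is the receptor form best known for mediating the effects of dioxin-like compounds on the embryo. Killifish of New Bedford Harbor, a site long polluted with PCBs, are known for heritable tolerance of these compounds.

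With rising PCB126, the AHR target genes CYP1A and ahrr and the adhesion molecule gene ncam3 rose with dose, with group means higher at each dose than at the one before, although PCB40 against Control alone passed for none of them. Group means of ahr2, the fatty acid ligase gene acsl5 and the monocarboxylate transporter gene slc16a1a rose mainly between 40 and 400 ng/L. The test that the 2 steps differ passed for none of these genes. The trend was downward for 5 of 19 sterol synthesis genes and 3 of 30 chaperone genes (0.434% of all tested genes). Both counts were 0 without PCB400 replicate 3 or 5. Of 26 cell cycle genes 0 passed the trend, while 15 were lower in PCB400 than in PCB40 embryos (2.54% of all tested genes). The 15 became 5 without PCB40 replicate 5. The trend call of ahrr held in 8 of the 18 fits that left out 1 embryo. The 3 doses were scored 0, 1 and 2, and the slope on this score (log2 expression per step) was tested for 22099 genes with edgeR's quasi-likelihood test at a Benjamini-Hochberg adjusted p under 0.05. The slope passed for 199 genes, 0.9% of those tested, of which 103 were higher with dose (0.466% of those tested) and 96 were lower (0.434%). At an unadjusted p under 0.05 there were 4409 genes (20%). PCB400 and Control embryos did not overlap for 122 of the 199, and PCB400 and PCB40 embryos did not for 26. Over all 22099 tested genes the same held for 730 (3.3%) and 337 (1.52%). The 199 included 69 genes known only by a LOC number. Group means were ordered with dose for 193 of the 199 (42.3% of all tested genes), a description only, since a slope over the ordered doses chose these genes. For 0 genes did all 6 PCB40 embryos lie between all Control and all PCB400 embryos. Changes were larger among the genes that rose: 26 had a slope above 1 log2 unit per step, while 4 had a slope below −1.

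Each gene was placed by its position, the log2 fold change of PCB40 against Control divided by that of PCB400 against Control. Genes with a position of 0.25 to 0.75 were called graded, those from −0.25 to 0.25 late, those of 0.75 or more early and those below −0.25 opposite. Of the 199 genes, 86 were graded (53 higher, 33 lower), 113 were late (50 higher, 63 lower), and 0 were early or opposite. The change between PCB400 and PCB40 passed by itself for 101 of the 113 late genes and 8 of the 86 graded genes (3.34% of all tested genes). Position is made from the same fold changes, so these counts describe the classes and test nothing. Curvature, the test that the 2 steps differ, passed for 0 of the 199 genes. Graded and late are therefore descriptions, and none of the 199 was shown to leave a straight line. The test of PCB40 against Control passed for 0 genes, with 657 at an unadjusted p under 0.05 (2.97%) and 21 called by DESeq2. Both steps had an unadjusted p under 0.05 and the same sign for 17 genes (0.0769%), all of them among the 199. PCB400 against PCB40 gave 739 calls, 177 higher (0.801%) and 562 lower (2.54%), with 4436 at an unadjusted p under 0.05 (20.1%). The 739 became 42 without PCB40 replicate 5, 57 without PCB400 replicate 5, 86 without PCB400 replicate 2 and 176 without PCB400 replicate 3. It was 235, 340 and 486 without PCB40 replicates 4, 6 and 2, and 1545 and 2726 without PCB400 replicate 6 and PCB40 replicate 1. A further set of positions, added after the data were seen, covered the 726 genes called in PCB400 against Control (3.29% of those tested): 180 were graded (24.8%), 518 late (71.3%), 6 early (0.826%) and 22 opposite (3.03%). Of the 726, 251 were higher (1.14%) and 475 lower (2.15%), and 4544 genes had an unadjusted p under 0.05 (20.6%). The 726 became 99 without PCB400 replicate 5, 107 without PCB400 replicate 2, 188 without PCB400 replicate 3, 327, 265, 393, 411 or 309 without Control replicate 1, 2, 3, 4 or 6, and 1474 or 1459 without PCB40 replicate 1 or PCB400 replicate 6. Over all tested genes the shares were 21.7% graded, 27.8% late, 23% early and 27.5% opposite. Positions close to a bound are not sharply placed: si:dkey-238o13.4, at 0.24, counted as late, while txn at 0.26 and hbp1 and mrps17 at 0.27 counted as graded.

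**Figure D1:**
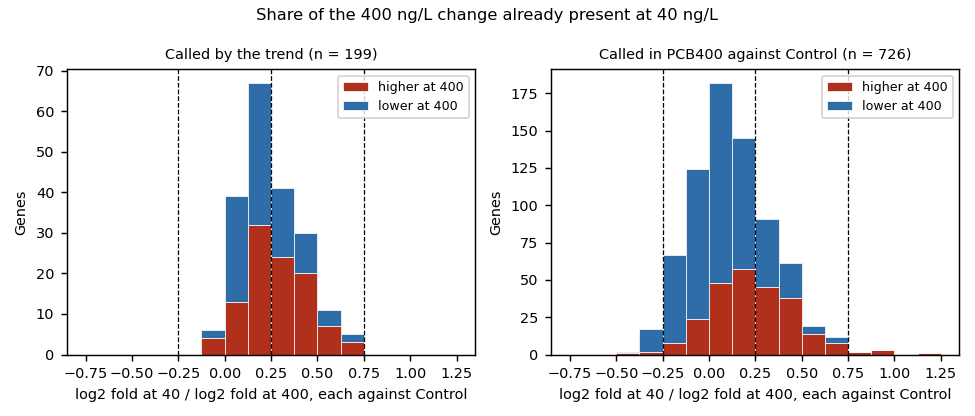
Histograms of position, the log2 fold change at 40 ng/L divided by that at 400 ng/L (both against Control, x axis), in genes (y axis) called by the trend (left, n = 199) and in PCB400 against Control (right, n = 726). Red marks genes higher at 400 ng/L, blue genes lower, dashed lines the bounds at −0.25, 0.25 and 0.75, and values beyond the axis are drawn in the end bins. Bars are stacked. Late genes are 63 of the 96 lower and 50 of the 103 higher trend genes, and 380 of the 475 lower and 138 of the 251 higher genes at right.

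The number of genes called depended on single embryos. Without 1 of PCB400 replicates 1 to 5 it fell to 18, 14, 9, 29 or 11, and without Control replicates 1, 2, 3, 4 or 6 to 32, 23, 58, 80 or 88. It was 67 without PCB40 replicate 2, 377 without PCB40 replicate 1, 409 without PCB40 replicate 5 and 623 without PCB400 replicate 6. PCB400 replicate 6 was the least moved PCB400 embryo in 113 of the 199 genes (71 of the 103 higher and 42 of the 96 lower) and had the fewest reads, 38.5 M, in a range of 38.5 to 66.4 M reads. A length slope, the dependence of expression on transcript length in a library relative to the mean library, was 0.206 in that embryo, the highest of the 18. It ran from −0.0641 to 0.00902 in Control, from −0.129 to 0.194 in PCB40 and from −0.0489 to 0.206 in PCB400 embryos, and was higher in PCB400 than in Control (exact permutation test, two-sided, p = 0.0325). With this slope in the model 106 genes were called, of which 48 were among the 199 and 81.1% were higher, against 51.8% of the 199. The 2 length corrections differed. With the length trend of each library removed as an offset instead, 173 genes were called, 132 of them among the 199, and 49.7% were higher. Without the 3 libraries above 0.15 (PCB40 replicate 1, PCB400 replicates 2 and 6) 566 were called, 157 of them among the 199. The part of transcript length in the results was not tested further.

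The AHR list held 21 names, which matched 8 genes by symbol or synonym. Names without a match were not tested. Of the 8 genes, 3 rose with dose: CYP1A, ahrr and ahr2 (0.466% of all tested genes passed the trend higher). The median log2 fold change of the 8 was 0.26 at 40 ng/L and 0.82 at 400 ng/L, against 0.024 and 0.061 over all tested genes. CYP1A levels are given in CPM, read counts scaled to library size, which compare embryos for 1 gene and not genes with each other. CYP1A had 10.7, 2.65, 4.42, 11.5, 2.99 and 5.54 CPM in the 6 Control embryos, 20.4, 146, 145, 45.1, 108 and 7.06 CPM in the PCB40 embryos and 587, 361, 487, 399, 459 and 43.3 CPM in the PCB400 embryos. All 6 PCB400 embryos lay above all Control embryos, and 5 of 6 PCB40 embryos did. The lowest PCB400 embryo, replicate 6, fell within the PCB40 range, and PCB40 replicate 6 fell within the Control range. The slope was 2.97 ± 0.38 log2 units per step (SE, adjusted p = 0.00229). CYP1A was graded, at a position of 0.61: its log2 fold change was 3.64 ± 0.7 for PCB40 against Control (adjusted p = 0.327, unadjusted p = 5.49e-05) and 2.31 ± 0.65 for PCB400 against PCB40 (adjusted p = 0.0583).

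The repressor ahrr ran at far fewer reads. Its lowest, median and highest values were 0.0244, 0.091 and 0.401 CPM in Control, 0.0374, 0.217 and 0.438 CPM in PCB40 and 0.156, 0.852 and 1.28 CPM in PCB400 embryos. PCB400 replicate 6 was again lowest of its group, and the other 5 PCB400 embryos lay above every Control and PCB40 embryo. The slope of ahrr was 1.34 ± 0.29 (adjusted p = 0.0405), graded at 0.34. It was called in 8 of the 18 fits that left out 1 embryo. The call was lost without any 1 of PCB400 replicates 1 to 5, Control replicates 1 to 4 or PCB40 replicate 2 (slope 1.24 to 1.36). It was also lost with the length slope in the model (1.22, adjusted p = 0.0892) and with embryos blocked by replicate number (1.35, adjusted p = 0.115). The receptor gene ahr2 was late, at 0.2, with a median of 2.49 CPM in Control, 2.84 CPM in PCB40 and 5.5 CPM in PCB400 embryos. All 6 PCB400 embryos (2.96 to 6.21 CPM) lay above all Control embryos (1.99 to 2.63 CPM) and 5 of them above all PCB40 embryos (1.95 to 3.64 CPM). Its slope was 0.55 ± 0.1 (adjusted p = 0.0245), called in 14 of the 18 fits that left out 1 embryo.

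The other tested AHR list members did not pass the trend test. The partner genes arnt and arnt2 had slopes of 0.27 ± 0.1 (adjusted p = 0.147) and 0.19 ± 0.12 (adjusted p = 0.375). The quinone reductase gene nqo1 had a slope of 0.81 ± 0.33 (adjusted p = 0.185), with 3.17 CPM in PCB400 replicate 5 and at most 1.12 CPM in the other PCB400 embryos. AHR1 had a slope of −0.01 ± 0.14 (adjusted p = 0.987), and its sign changed in 6 of the alternative fits, as that of arnt2 did in 2. LOC105937229, for which RefSeq gives AHR2 as a synonym, had a slope of 0.23 ± 0.1 (adjusted p = 0.216). It is thus a second gene under that name beside ahr2, and which of them mediates effects of PCB126 was not tested.

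**Figure D2:**
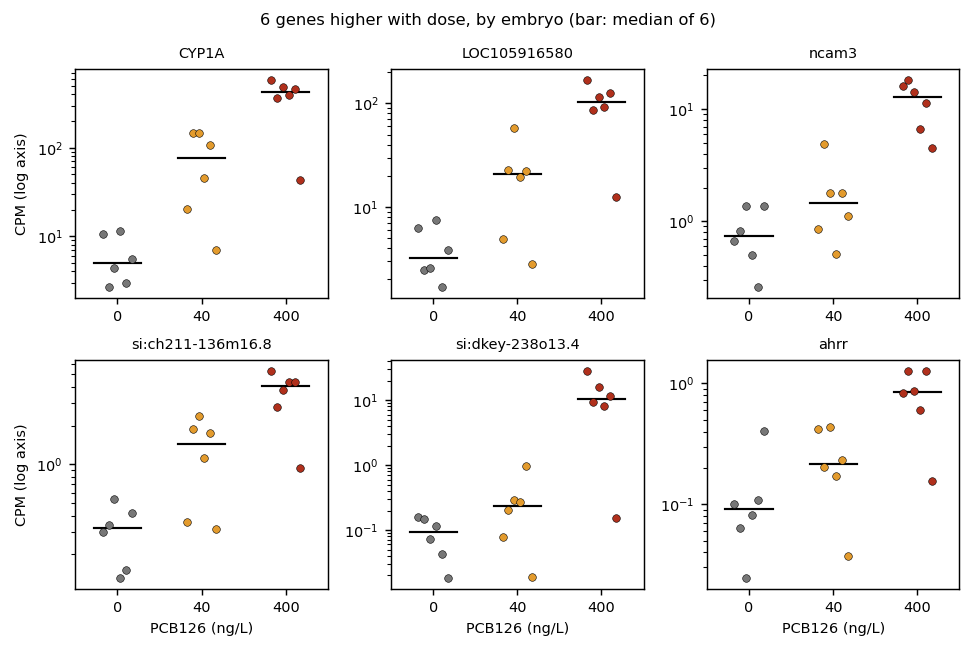
Expression in CPM (log y axis) of 6 genes in the embryos given 0, 40 or 400 ng/L PCB126 (x axis). Each point is 1 embryo, with replicates 1 to 6 from left to right, and bars are medians of 6. PCB400 replicate 6 is the lowest PCB400 point in each panel, and for CYP1A it sits at 43.3 CPM among PCB40 embryos of 7.06 to 146 CPM.

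In 29 alternative fits, 7 of the 199 genes were called in every fit that tested them: CYP1A, ncam3, si:dkey-238o13.4, si:ch211-136m16.8, LOC105916580, LOC105916579 and LOC118565211, all of which rose with dose. Over the 199, the number of the 18 fits leaving out 1 embryo that called a gene ran from 3 to 18, with a median of 8. PCB400 replicate 6 was the lowest PCB400 embryo for each of the 7. In PCB40, replicates 6 and 1 were the lowest pair for 6 of them, and replicates 4 and 1 for ncam3. Among these genes, LOC105916579 and LOC105916580 neighbour each other in the RefSeq annotation, as do si:dkey-238o13.4 and LOC118565211.

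The gene ncam3 belongs to the neural cell adhesion molecules, surface proteins through which neurons and their processes attach. It had a lowest, median and highest value of 0.258, 0.745 and 1.37 CPM in Control, 0.512, 1.46 and 4.87 CPM in PCB40 and 4.46, 12.8 and 18.3 CPM in PCB400 embryos. All PCB400 embryos exceeded all Controls, and 3 PCB40 embryos did. The slope was 1.93 ± 0.26 (adjusted p = 0.00229), and the position of 0.3 counted as graded. The step of PCB400 against PCB40 passed as well, at 2.7 ± 0.51 (adjusted p = 0.0177), while PCB40 against Control had 1.13 ± 0.5 (adjusted p = 1, unadjusted p = 0.0371).

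The steepest slope among genes with a symbol was that of si:dkey-238o13.4, at 3.77 ± 0.48 (adjusted p = 0.00229). It had 0.0182, 0.0938 and 0.161 CPM (lowest, median and highest) in Control, 0.0187, 0.234 and 0.972 CPM in PCB40 and 0.156, 10.4 and 28.5 CPM in PCB400 embryos. The increase stood almost wholly in 5 PCB400 embryos, since replicate 6, at 0.156 CPM, lay below the highest Control. Its neighbour LOC118565211 had the same order, with 0.316 CPM in Control, 0.457 CPM in PCB40 and 19.1 CPM in PCB400 embryos as medians, and 0.379 CPM in PCB400 replicate 6 against 16.5 CPM in the next lowest embryo. The slope of LOC118565211 was 3.21 ± 0.43 (adjusted p = 0.00229), late like that of si:dkey-238o13.4.

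The other neighbouring pair was graded. LOC105916580 had a median of 3.21 CPM in Control, 20.8 CPM in PCB40 and 103 CPM in PCB400 embryos, with a slope of 2.31 ± 0.32 (adjusted p = 0.00331). LOC105916579 was nearly silent without PCB126: the 6 Control libraries held 1 read in all, the PCB40 libraries 67 reads and the PCB400 libraries 290 reads (adjusted p = 0.00595). Each of the 6 PCB400 embryos, at 0.156 to 2.08 CPM, and 5 of the 6 PCB40 embryos lay above every Control embryo for LOC105916579. The gene si:ch211-136m16.8 was graded too, at 0.58, with medians of 0.321 CPM in Control, 1.43 CPM in PCB40 and 4.04 CPM in PCB400 embryos and a slope of 1.75 ± 0.26 (adjusted p = 0.00595).

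Further graded genes rose less steeply. The gene amh encodes anti-Müllerian hormone, a regulator of gonad development. It had 0.127 to 0.294 CPM in Control, 0.258 to 0.858 CPM in PCB40 and 0.29 to 1.46 CPM in PCB400 embryos, with a slope of 1.1 ± 0.19 (adjusted p = 0.019, called in 15 of 18 fits that left out 1 embryo). It was the 1 of 19 genes of the steroid and hormone list that passed (0.466% of all tested genes passed higher). That list had a median log2 fold change of 0.22 at 400 ng/L. The immune checkpoint gene vsir had a slope of 0.43 ± 0.08 (adjusted p = 0.0268). Its medians were 2.15 CPM in Control, 2.95 CPM in PCB40 and 3.96 CPM in PCB400 embryos, with no overlap between PCB400 and Control embryos. The gene fnip1, a partner of folliculin, had a slope of 0.41 ± 0.08 and the transcription factor gene hbp1 one of 0.77 ± 0.15 (adjusted p = 0.0268 each).

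Of 22 lipid and fuel genes tested, 3 rose (acsl5, slc16a1a and bco1) and 1 fell (mid1ip1l). Over all tested genes 0.466% passed the trend higher and 0.434% lower. The list's median log2 fold change was 0 at 40 ng/L and −0.06 at 400 ng/L. The gene acsl5 encodes a ligase that activates long-chain fatty acids. Its range was 1.09 to 2.06 CPM in Control, 0.828 to 2.1 CPM in PCB40 and 0.691 to 21.4 CPM in PCB400 embryos, with medians of 1.26, 1.54 and 9.71 CPM. PCB400 replicate 6 was below every Control, and the other 5 PCB400 embryos were above every Control and PCB40 embryo. The slope was 1.41 ± 0.26 (adjusted p = 0.0268), with a log2 fold change of 0.14 ± 0.48 for PCB40 against Control and 2.65 ± 0.5 for PCB400 against PCB40 (adjusted p = 0.0175).

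The gene slc16a1a, for a transporter of lactate and other monocarboxylates, gave the plainest late pattern, at a position of 0. It had 24.5, 29.3 and 35.2 CPM in Control, 19.8, 29.4 and 39.8 CPM in PCB40 and 42.7, 65.8 and 102 CPM in PCB400 embryos. All 6 PCB400 embryos, replicate 6 included, exceeded all 12 others. PCB400 exceeded PCB40 by 1.24 ± 0.21 log2 units (adjusted p = 0.0122), and the slope was 0.62 ± 0.12 (adjusted p = 0.0268). The carotene-cleaving enzyme gene bco1 was graded, with mean levels of 2.43 ± 1.33 CPM in Control, 5.22 ± 2.5 CPM in PCB40 and 8.62 ± 3.84 CPM in PCB400 embryos (SD; slope 0.91, adjusted p = 0.0479). Without Control replicate 2 or any 1 of PCB400 replicates 2 to 5, 0 members of the list were called higher, and without Control replicate 1 or 3 or PCB400 replicate 1 there was 1. In the opposite direction, mid1ip1l, whose mammalian product promotes fatty acid synthesis, had 608 to 748 CPM in Control, 486 to 662 CPM in PCB40 and 254 to 448 CPM in PCB400 embryos. Its slope of −0.47 ± 0.08 (adjusted p = 0.0142) was called in 17 of 18 fits that left out 1 embryo, and its late step was −0.81 ± 0.12 (adjusted p = 0.0122).

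**Figure D3:**
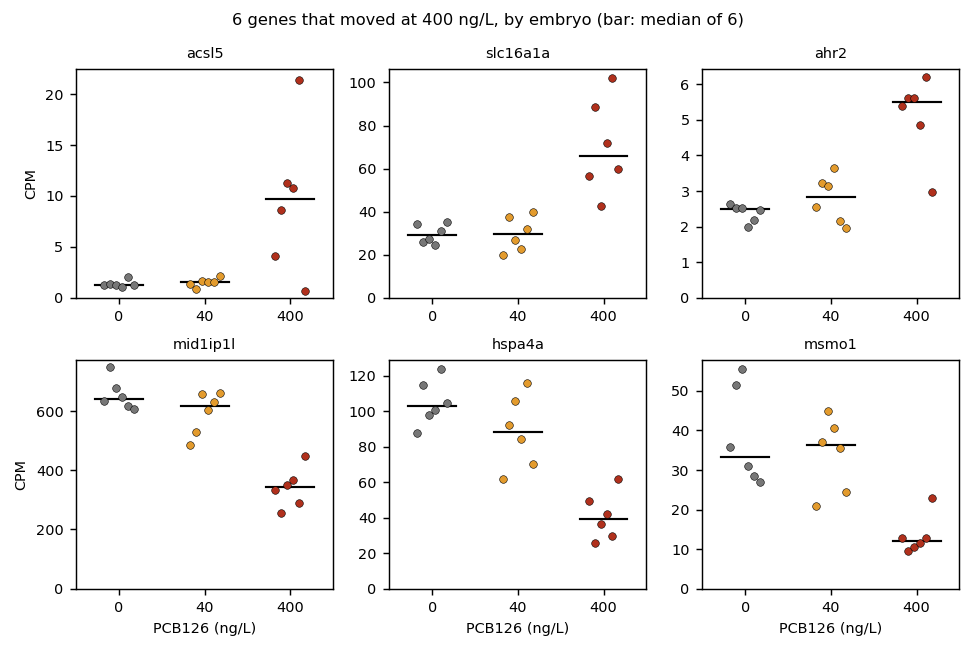
Expression in CPM (linear y axis from 0) of 6 late genes in embryos given 0, 40 or 400 ng/L PCB126 (x axis). Points are embryos, with replicates 1 to 6 from left to right, and bars are medians of 6. The 6 PCB400 embryos of slc16a1a lie at 42.7 to 102 CPM above all others, and those of hspa4a at 25.6 to 61.6 CPM below all others.

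Of the 50 late genes that rose, 5 more were among those of smallest p. The gene sybu encodes syntabulin, a linker of cargo to kinesin in axons, and had medians of 65.2 CPM in Control, 76.8 CPM in PCB40 and 129 CPM in PCB400 embryos (slope 0.45 ± 0.08, adjusted p = 0.0222). For mylipa, a ubiquitin ligase known in mammals for targeting lipoprotein receptors, the medians were 4.97, 5.85 and 13.5 CPM (slope 0.66 ± 0.12, adjusted p = 0.0268). For cd7al they were 0.0666, 0.0785 and 0.652 CPM (slope 1.71 ± 0.31, adjusted p = 0.0258). Its Control and PCB40 medians lie near 3 reads a library (0.0463 to 0.0733 CPM), so its late class is not sharply placed. The call of cd7al held in 12 of the 18 fits that left out 1 embryo. The phosphatase gene ctdspla and the Golgi trafficking gene arfgap3 had slopes of 0.41 ± 0.08 and 0.46 ± 0.09 (adjusted p = 0.0268 each). For all 5 of these genes PCB400 replicate 6 was the lowest PCB400 embryo and the other 5 PCB400 embryos lay above all PCB40 embryos.

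Some sterol synthesis genes fell. Of 19 tested members, 5 passed the trend, each lower with dose (among them sqlea, CYP51, msmo1 and tm7sf2), 8 were lower in PCB400 than in Control, and 0 were higher. Over all tested genes 0.434% passed the trend lower and 2.15% were lower in PCB400 than in Control. The median log2 fold change of the list was −0.17 at 40 ng/L, with 17 of 19 members below 0, and −0.81 at 400 ng/L, with 15 of 19 below 0. The gene msmo1, a sterol demethylase, had 27, 33.4 and 55.5 CPM in Control, 21, 36.3 and 44.9 CPM in PCB40 and 9.57, 12.1 and 22.8 CPM in PCB400 embryos. All PCB400 embryos lay below all Controls, with replicate 6 the highest of them. Its slope was −0.76 ± 0.15 (adjusted p = 0.0334), and it was late, at 0.11. The sterol reductase gene tm7sf2 was late as well, with 7.63 to 11.4 CPM in Control, 5.68 to 11.8 CPM in PCB40 and 3.36 to 4.72 CPM in PCB400 embryos, and no PCB400 embryo overlapped another group (slope −0.6 ± 0.12, adjusted p = 0.0301).

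Within the same pathway sqlea was graded. For sqlea, which encodes squalene epoxidase, the medians were 2.69 CPM in Control, 2.08 CPM in PCB40 and 0.507 CPM in PCB400 embryos, and the Controls alone spread from 0.674 to 7.92 CPM (slope −1.32 ± 0.29, adjusted p = 0.0405). CYP51, the lanosterol demethylase, was late, with medians of 16.3, 12.6 and 4.07 CPM (slope −0.69, adjusted p = 0.0405), and PCB400 replicate 6 stood at 13.3 CPM. The rate-limiting enzyme gene hmgcra had a PCB400 to Control log2 fold change of −1.36 (adjusted p = 0.0278) and missed the trend (adjusted p = 0.0646). Without any 1 of PCB400 replicates 1 to 5 or Control replicates 1 to 3, or with the length slope in the model, 0 sterol genes were called lower by the trend, and without PCB400 replicate 6 there were 8. The number was 3 without Control replicate 4 or PCB40 replicate 2. The median at 400 ng/L stayed between −1.09 and −0.72 over the 18 fits that left out 1 embryo.

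Some chaperone genes of the Hsp70 and Hsp90 cycles also fell at 400 ng/L, with 3 of 30 passing the trend lower (hspa4a, ppp5c and ptges3b), 4 lower in PCB400 than in Control and 0 higher. Shares over all tested genes were 0.434% lower by the trend and 2.15% lower in PCB400 than in Control. The list's median log2 fold change was 0.03 at 40 ng/L and −0.25 at 400 ng/L. The gene hspa4a encodes a nucleotide exchange factor of Hsp70, and had 87.6, 103 and 124 CPM in Control, 61.8, 88.6 and 116 CPM in PCB40 and 25.6, 39.4 and 61.6 CPM in PCB400 embryos. No PCB400 embryo overlapped another group. Its slope was −0.68 ± 0.12 (adjusted p = 0.019), called in 16 of 18 fits that left out 1 embryo (lost without PCB400 replicate 3 or 5), and its step of PCB400 against PCB40 was −1.12 ± 0.19 (adjusted p = 0.0134). The Hsp90 phosphatase gene ppp5c and the co-chaperone gene ptges3b had slopes of −0.45 ± 0.09 (adjusted p = 0.0268) and −0.32 ± 0.07 (adjusted p = 0.0481), called in 12 and 7 of the 18 fits. The list's trend count was 0 without PCB400 replicate 3 or 5, 1 without PCB400 replicate 1, 2 or 4 or Control replicate 2 and with the length slope in the model, and 7 without PCB400 replicate 6.

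None of the 26 cell cycle genes tested passed the trend or the test of curvature, though 24 slopes were below 0. Of these genes, 15 were lower in PCB400 than in PCB40 (2.54% of all tested genes). In PCB400 against Control 7 were lower (2.15% of all tested genes), with 0 higher in either comparison. The log2 fold changes of the 26 genes were above 0 in 25 at 40 ng/L (median 0.23, 0 called). They were below 0 in 24 of 26 at 400 ng/L (median −0.73). The summed level of the 26 genes was 758, 1060 and 1310 CPM (lowest, median and highest) in Control, 994, 1150 and 1520 CPM in PCB40 and 395, 633 and 807 CPM in PCB400 embryos. No PCB400 embryo reached the lowest PCB40 embryo, and 1 Control embryo, replicate 5, lay below the highest PCB400 embryo.

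The 3 cell cycle genes with the smallest p between PCB400 and PCB40 were birc5a, mcm7 and cdk1. The gene birc5a, for survivin of the chromosomal passenger complex, had 32.7 to 81.2 CPM in Control, 49.1 to 82.3 CPM in PCB40 and 14.8 to 34.4 CPM in PCB400 embryos (step −1.31 ± 0.21, adjusted p = 0.0122). For mcm7, a subunit of the replicative helicase, the medians were 88.8 CPM in Control, 105 CPM in PCB40 and 55.5 CPM in PCB400 embryos (step −0.87 ± 0.15, adjusted p = 0.0122). For cdk1, the kinase that drives entry into mitosis, they were 78.1, 94.1 and 43 CPM (step −1.22 ± 0.21, adjusted p = 0.0122). In each of the 3 genes all PCB400 embryos lay below all PCB40 embryos. Without PCB40 replicate 5 there were 5 of the 26 genes called lower in PCB400 than in PCB40, without PCB400 replicate 2 or 5 there were 6, and without PCB400 replicate 3 there were 9. The median step stayed between −1.01 and −0.8 over the 18 fits that left out 1 embryo.

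Of 18 genes of neuron production and growth, ncam3 rose and gap43 fell with dose, and 4 were lower in PCB400 than in PCB40: gap43, neurog1, ascl1a and insm1a. Over all tested genes 2.54% were lower in PCB400 than in PCB40, and 0.466% passed the trend higher and 0.434% lower. The proneural factor gene ascl1a had 16.7 to 33.3 CPM in Control, 25.7 to 38.7 CPM in PCB40 and 14.5 to 23.9 CPM in PCB400 embryos (step −0.8 ± 0.16, adjusted p = 0.0195), so that PCB40 and PCB400 did not overlap. Step log2 fold changes of neurog1 and insm1a were −0.83 (adjusted p = 0.0264) and −0.82 (adjusted p = 0.0487). The growth cone protein gene gap43 was late, with 1280, 1370 and 1810 CPM in Control, 1040, 1340 and 1600 CPM in PCB40 and 755, 905 and 1050 CPM in PCB400 embryos (slope −0.35 ± 0.07, adjusted p = 0.0334). Without PCB40 replicate 5 or PCB400 replicate 5, 0 members of the list were lower in PCB400 than in PCB40, with 1 without PCB400 replicate 2 and 2 without PCB400 replicate 3.

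The hox genes hoxd4a, hoxa5a, hoxc6a, hoxb8a and hoxb9a, which mark hindbrain and spinal cord, were measured beside these groups. All 5 had log2 fold changes below 0 in PCB40 against Control, in PCB400 against PCB40 and in PCB400 against Control (medians −0.58 at 40 ng/L and −1.52 at 400 ng/L against Control), and 0 were called. Their summed level was 38.7 to 76.9 CPM in Control, 12.2 to 75.2 CPM in PCB40 and 26.7 to 59 CPM in PCB400 embryos. The gene hoxb8a alone had medians of 11.6 CPM in Control, 6.13 CPM in PCB40 and 0.37 CPM in PCB400 embryos, but ranges of 4.45 to 14.6, 0.0397 to 14 and 0.113 to 13.3 CPM. Without the 3 libraries of high length slope, or without PCB400 replicate 6 alone, 3 of the 5 were called lower in PCB400 than in Control. Summed neuron markers, a list that holds gap43, ran from 5140 to 5910 CPM in Control, 4010 to 5640 CPM in PCB40 and 3880 to 4610 CPM in PCB400 embryos. Summed oligodendrocyte markers had medians of 2210, 1840 and 1440 CPM in that order, with overlap between all groups. A sum is set by its most abundant members. Taken gene by gene, the 8 oligodendrocyte markers had median log2 fold changes of −0.08 at 40 ng/L and −0.07 at 400 ng/L, and 0 were called. Radial glia markers had medians of 6240, 5310 and 6060 CPM. Skeletal muscle markers stood at 15.9 to 99, 17.6 to 121 and 24 to 161 CPM, and pituitary markers at 0.603 to 485, 0.337 to 281 and 0.0951 to 331 CPM in the same order of dose. How the tissue taken with each brain bears on these results was not tested.

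No member of the proteasome list was called by the trend. Of 28 tested, 9 were lower in PCB400 than in PCB40 and 6 lower in PCB400 than in Control, and all 28 slopes were below 0. Over all tested genes 2.54% and 2.15% were lower in these comparisons, and the median slope was 0.03. The median log2 fold change of the 28 was 0.01 at 40 ng/L and −0.46 at 400 ng/L. The core subunit gene psmb2 had 80.6 to 111 CPM in Control, 80.3 to 122 CPM in PCB40 and 57.2 to 75 CPM in PCB400 embryos (step −0.51 ± 0.11, adjusted p = 0.0217), with no overlap of PCB400 with either other group. Without PCB400 replicate 2, 3 or 5 or PCB40 replicate 5, 0 members were lower in PCB400 than in PCB40. There was 1 without PCB40 replicate 4 or 6, 4 without PCB40 replicate 2, 5 without Control replicate 6 and 25 without PCB40 replicate 1. With the length slope in the model the median at 400 ng/L was −0.25, with 1 member lower than in PCB40. The proteasome activator gene psme3, from the trend itself, had 173 to 199 CPM in Control, 111 to 211 CPM in PCB40 and 74.1 to 128 CPM in PCB400 embryos (slope −0.45 ± 0.09, adjusted p = 0.0268).

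Of 29 genes of mitochondrial respiration tested, 3 passed the trend lower (atp5f1b, atp5mpl and chchd4b) and 1 higher (chchd3b), and the log2 fold changes were below 0 in 26 of 29 at each dose, with medians of −0.1 at 40 ng/L and −0.31 at 400 ng/L. Over all tested genes 0.434% passed lower and 0.466% higher, and the medians were 0.024 and 0.061. The ATP synthase gene atp5mpl was graded, at 0.41, with 390, 427 and 464 CPM in Control, 284, 382 and 437 CPM in PCB40 and 269, 294 and 345 CPM in PCB400 embryos (slope −0.26 ± 0.05, adjusted p = 0.0268). All PCB400 embryos lay below all Controls, and 4 of 6 PCB40 embryos did. With the length trend removed the slope of atp5mpl was −0.03 (adjusted p = 0.862), and without Control replicate 1 or PCB400 replicate 1, 2, 3 or 5 its call was lost at a slope of −0.26 or −0.27. The import factor gene chchd4b was late instead, with 57.3 to 73.1, 47.1 to 68.8 and 24 to 41.5 CPM (slope −0.4 ± 0.08, adjusted p = 0.0268). With the length slope in the model the list's median at 400 ng/L was −0.13, and with the length trend removed −0.14. The number called lower by the trend was 0 without PCB400 replicate 1, 2, 3 or 5, 1 without PCB400 replicate 4 or Control replicate 1 or 2 and with the length slope in the model. It was 5 without PCB40 replicate 3 or 4 or PCB400 replicate 6, 6 without PCB40 replicate 5 or 6 and 7 without PCB40 replicate 1. In the other direction chchd3b, of the complex that shapes mitochondrial cristae, had medians of 14.8 CPM in Control, 19.6 CPM in PCB40 and 27.8 CPM in PCB400 embryos (slope 0.44 ± 0.08, adjusted p = 0.0277, called in 9 of 18 fits that left out 1 embryo).

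**Figure D4:**
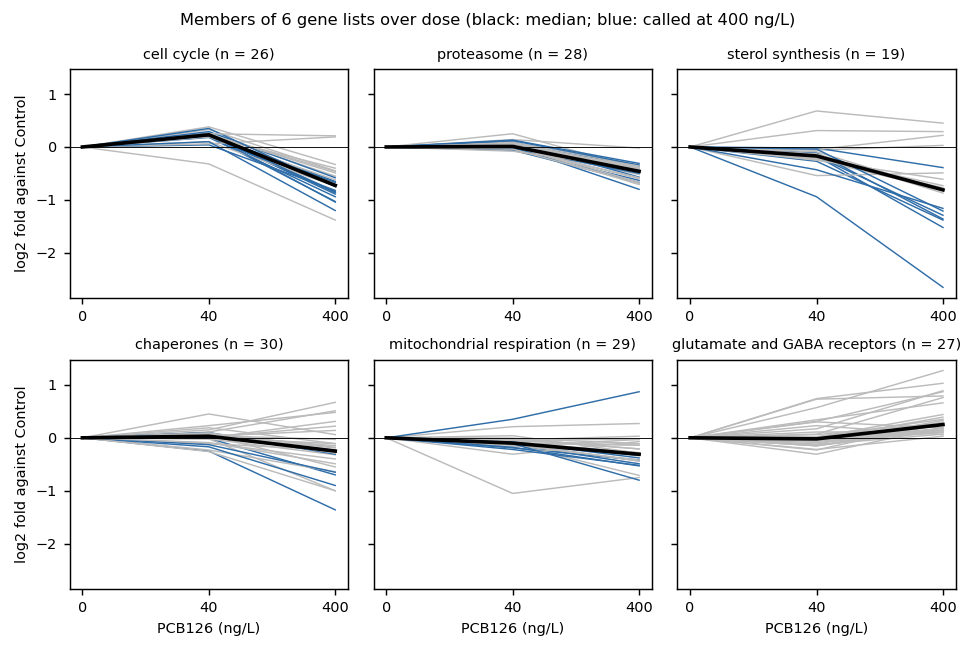
Log2 fold change against Control (y axis) of the tested members of 6 gene lists at 0, 40 and 400 ng/L PCB126 (x axis); each line is a gene. Black is the list's median, and blue lines are genes called in PCB400 against Control or against PCB40. Cell cycle genes lie above 0 at 40 ng/L (25 of 26) and below it at 400 ng/L (24 of 26), while the sterol median runs downward over both doses (−0.17 and −0.81).

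Of the 33 graded genes that fell, several are given by value. The ubiquitin-conjugating enzyme variant gene ube2v2 had 664, 713 and 766 CPM in Control, 535, 658 and 723 CPM in PCB40 and 447, 512 and 565 CPM in PCB400 embryos, at a position of 0.34 (slope −0.24 ± 0.04, adjusted p = 0.0234). All PCB400 embryos lay below all Controls, and 4 of 6 PCB40 embryos did. Medians of the translation initiation gene eif3jb were 257, 222 and 173 CPM (slope −0.29 ± 0.06, adjusted p = 0.0268). Medians of mrps17, a protein of the mitochondrial ribosome, were 112, 104 and 66 CPM (slope −0.37 ± 0.07, adjusted p = 0.0268). Cytosolic ribosomal protein genes gave 0 trend calls of 67, with medians of 0.16 at 40 ng/L and 0.13 at 400 ng/L. Of these, rpl5a was called lower in PCB400 (94.9 to 169 CPM) than in PCB40 embryos (150 to 293 CPM), with a log2 fold change of −0.94 ± 0.17 (adjusted p = 0.0147).

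Graded decreases were also seen in rilpl1, ca6, txn and s100b. The carbonic anhydrase gene ca6 had medians of 5.94 CPM in Control, 4.16 CPM in PCB40 and 2.98 CPM in PCB400 embryos (slope −0.51 ± 0.1, adjusted p = 0.0297), and rilpl1, of the ciliary trafficking proteins, 18.5, 15.8 and 10.9 CPM (slope −0.34 ± 0.07, adjusted p = 0.0277). The glial calcium-binding protein gene s100b had a position of 0.67, with medians of 424, 354 and 296 CPM (slope −0.25 ± 0.06, adjusted p = 0.0485). It was called in 8 of the 18 fits that left out 1 embryo and in 4 of the 11 other alternatives. Each of the 3 length corrections lost the call. PCB400 replicate 1, at 407 CPM, lay above the lowest Control, at 394 CPM. PCB400 against PCB40 was −0.17 ± 0.12 (adjusted p = 0.456). The thioredoxin gene txn was the 1 of 18 redox genes to pass, with medians of 701, 639 and 478 CPM (slope −0.29 ± 0.06, adjusted p = 0.037). For txn the call held in 9 of the 18 fits that left out 1 embryo and in 8 of the 11 other alternatives. The redox list had median log2 fold changes of 0.01 at 40 ng/L and −0.15 at 400 ng/L. Over all tested genes 0.434% passed the trend lower.

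Of 17 actin and cytoskeleton genes, actb1 and tmsb2 passed the trend, both lower, as did 0.434% of all tested genes. The list's median log2 fold change was −0.08 at 40 ng/L and −0.41 at 400 ng/L. The actin gene actb1 had 854 to 1380 CPM in Control, 589 to 1160 CPM in PCB40 and 303 to 785 CPM in PCB400 embryos (slope −0.63 ± 0.13, adjusted p = 0.0327), and tmsb2, for an actin-binding thymosin, 1450 to 1780, 1040 to 1760 and 880 to 1290 CPM (slope −0.33 ± 0.07, adjusted p = 0.0384). Neither was called without any 1 of PCB400 replicates 1 to 5 or Control replicate 1 or 2, or with the length slope in the model (actb1 −0.52, tmsb2 −0.23), and with the length trend removed tmsb2 had −0.2 (adjusted p = 0.0645). The list's count was 1 without Control replicate 3 or 6 or PCB40 replicate 2, and 4 without Control replicate 5 or PCB40 replicate 5. The fusion protein gene stx4 was the 1 of 19 synaptic vesicle genes called (slope −0.4 ± 0.09, adjusted p = 0.0491). Its call held in 6 of the 18 fits that left out 1 embryo and in 5 of the 11 other alternatives. The gene si:zfos-943e10.1 had 34.9 to 52.2 CPM in Control, 33.8 to 44.4 CPM in PCB40 and 20.4 to 28.7 CPM in PCB400 embryos (slope −0.39 ± 0.06, adjusted p = 0.0142), and was called in all 18 fits that left out 1 embryo. The topoisomerase gene top1l and zc3h15 had slopes of −0.36 ± 0.07 and −0.23 ± 0.04 (adjusted p = 0.0268 each), also without overlap between PCB400 and the other groups.

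Of 27 glutamate and GABA receptor genes 0 were called, although all 27 had log2 fold changes above 0 at 400 ng/L (median 0.25) and 13 of 27 at 40 ng/L (median −0.02). Over all tested genes the medians were 0.061 at 400 ng/L and 0.024 at 40 ng/L. With the length slope in the model the median of the 27 at 400 ng/L was −0.03. Of 22 circadian genes, 19 had log2 fold changes above 0 at 400 ng/L (median 0.55). The 2 genes cry2 and tefb were higher in PCB400 than in Control, as were 1.14% of all tested genes. The clock output factor gene tefb also rose with dose, as did 0.466% of all tested genes. Its range was 95.7 to 217 CPM in Control, 94.3 to 231 CPM in PCB40 and 214 to 314 CPM in PCB400 embryos (slope 0.46 ± 0.11, adjusted p = 0.0491). The call of tefb held in 5 of the 18 fits that left out 1 embryo and was lost with RLE factors (adjusted p = 0.0512), with no filter (0.0582) and with each of the 3 length corrections (0.053 to 0.122).

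Genes off the dose line were sought with the curvature contrast, which is the difference between the 2 steps and is negative for a peak at 40 ng/L. It passed for 1 gene, 0.00453% of those tested, with 2003 at an unadjusted p under 0.05 (9.06%). That gene was gpx4a, which encodes glutathione peroxidase 4, the enzyme that reduces lipid hydroperoxides in membranes. It had 411, 463 and 544 CPM in Control, 744, 850 and 1360 CPM in PCB40 and 249, 294 and 521 CPM in PCB400 embryos. All 6 PCB40 embryos lay above all 12 others, and 4 of 6 PCB400 embryos lay below every Control. The curvature was −2.47 (adjusted p = 0.00899), made of 1 ± 0.19 for PCB40 against Control (adjusted p = 0.327, unadjusted p = 6.41e-05) and −1.47 ± 0.2 for PCB400 against PCB40 (adjusted p = 0.0122). The call of gpx4a was lost in the fit of all 36 libraries (−2.45, adjusted p = 0.297) and without PCB40 replicate 6 (−2.37, adjusted p = 0.0625). It was also lost with embryos blocked by replicate number (−2.49, adjusted p = 0.0966). The count of curved genes was 0 without PCB40 replicate 6 and 2 without PCB400 replicate 3 or 6.

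The next genes by curvature did not pass (adjusted p = 0.302 each). The gene alkbh6, of the AlkB dioxygenases, had medians of 14.5 CPM in Control, 22.4 CPM in PCB40 and 10.1 CPM in PCB400 embryos, and its fall between PCB40 and PCB400 passed (−0.93 ± 0.19, adjusted p = 0.0195). LOC105928901 had the same order, at 4.38, 8.52 and 1.47 CPM, with a step of −2.51 ± 0.42 (adjusted p = 0.0122), and so did LOC105921526, at 10.4, 12 and 4.59 CPM (−1.5 ± 0.22, adjusted p = 0.0122). The gene cmc2, whose product assists assembly of cytochrome c oxidase, split the embryos instead of grading them: it stood at 0.086 CPM in Control replicate 5 and 31.9 to 42.3 CPM in the other Controls, at 0.0561 to 0.343 CPM in all PCB40 embryos, and above 1 CPM in 3 of 6 PCB400 embryos. The step of cmc2 between PCB40 and PCB400 passed (6.59 ± 1.44, adjusted p = 0.0233).

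Genes that moved only at 40 ng/L were defined by a call in PCB40 against Control and in curvature, and none in PCB400 against Control. There were 0 by edgeR and 16 by DESeq2. With unadjusted p in place of adjusted p there were 370, and for 216 of these PCB400 also differed from PCB40 at an unadjusted p under 0.05. The 370 lie within the 657 of 22099 tested genes (2.97%) with such a p in PCB40 against Control. That share is below the cut of 0.05 itself, so the 370 cannot be read as genes that moved at 40 ng/L. The 5 smallest p of PCB40 against Control were those of ccdc15, CYP1A, gpx4a, LOC105929024 and LOC105916579 (adjusted p = 0.327 each). The gene ccdc15 had 7.08 to 9.22 CPM in Control, 8.94 to 20.4 CPM in PCB40 and 8.18 to 16.5 CPM in PCB400 embryos, a log2 fold change of 1.02 ± 0.19 at 40 ng/L. LOC105929024 had medians of 3.2 CPM in Control, 15.6 CPM in PCB40 and 12.7 CPM in PCB400 embryos (2.47 ± 0.48 at 40 ng/L), with PCB40 embryos spread from 3.52 to 52.4 CPM.

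**Figure D5:**
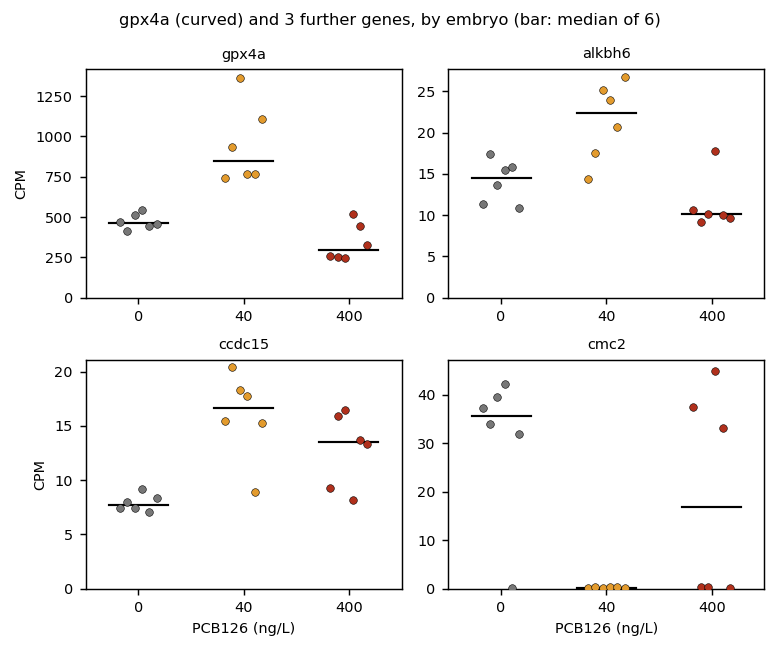
Expression in CPM (linear y axis from 0) of gpx4a, which passed the curvature test, and 3 further genes that did not, in embryos given 0, 40 or 400 ng/L PCB126 (x axis). Points are embryos, with replicates 1 to 6 from left to right, and bars are medians of 6. For gpx4a the PCB40 embryos, at 744 to 1360 CPM, lie above all others, and cmc2 takes 2 separate levels in Control and in PCB400 embryos.

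The same 40 ng/L exposure had been given to Scorton Creek (SCO) embryos, libraries that the dose trend did not use. In a fit of all 36 libraries, SCO PCB40 against SCO Control was called for 622 of 23292 genes (2.67%). Of the 199 trend genes, 22 were called there (11.1% of the 199 and 3.54% of the 622), all in the direction of the NBH slope. They were 21 of the 103 genes that rose, where 0.751% of all genes were called higher in SCO, and 1 of the 96 that fell, where 1.92% were called lower. By shape, these were 11 of 53 graded and 10 of 50 late genes that rose, and 0 of 33 graded and 1 of 63 late genes that fell.

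All 7 genes called in every alternative were among the 22. CYP1A had 97.8, 125 and 270 CPM (lowest, median and highest) in SCO PCB40 embryos and 1.08, 2.55 and 11 CPM in SCO Control embryos, a log2 fold change of 4.96 (adjusted p = 0.000149). For si:dkey-238o13.4 the values were 1.18, 6.72 and 13.9 CPM in SCO PCB40 and 0, 0.0802 and 0.133 CPM in SCO Control embryos, a change of 6.39 (adjusted p = 0.000114). For ncam3 they were 3.39, 6.44 and 8.59 CPM in SCO PCB40 and 0.482, 0.846 and 2.09 CPM in SCO Control embryos, a change of 2.63 (adjusted p = 0.00205). Others of the 22 with a symbol were si:ch211-136m16.8, chchd3b, vsir, bco1 and egln3, an oxygen-sensing prolyl hydroxylase gene.

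The difference between the populations in the 40 ng/L response, NBH minus SCO, was called for 4 genes in all (0.0172%), and 0 of these were trend genes, with 2136 genes at an unadjusted p under 0.05 and 4 again called with RLE size factors. For si:dkey-238o13.4 the difference was −4.69 (SE 1.22, adjusted p = 0.192), for CYP1A −1.33 (SE 0.86, adjusted p = 0.665) and for ncam3 −1.5 (SE 0.66, adjusted p = 0.492). The 4 genes called were fut9a, kmt2e, si:ch211-183d21.3 and crk, with differences of 1.56, 1.24, 1.27 and 1.16.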

How the data were processed

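Brain RNA of single embryos was sequenced, and the deposited files hold estimated read counts per transcript and TPM, the latter not used. The submitters' processing notes list edgeR 3.30.3 and Salmon 1.3.0 without saying what each was used for. The transcript set and genome build are not given in the sources used here. In the deposited files the authors' expected counts are not normalized, and effective length is given beside them, in bases. The estimated counts of 56244 transcripts were summed to 31637 RefSeq genes, named from a RefSeq table used for names and neighbours only, and rounded to whole numbers. Totals of 38.5 to 66.4 M reads per library set the precision. No pair of libraries held identical values.

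Genes passing edgeR's filterByExpr were fitted by edgeR 4.0.16 (quasi-likelihood, TMM scaling) in R 4.3.3, with Benjamini-Hochberg adjustment over all tested genes at 0.05. The slope used the scores 0, 1 and 2, and the other contrasts used group means in the same 18 libraries. SE was the log2 fold change divided by the square root of F. Levels are TMM-scaled CPM computed from the deposited expected counts, and their medians are over 6 embryos. The length slope was fitted per library over genes of log2 CPM above 2. Alternatives used DESeq2 1.42.0, limma 3.58.1 (voom), RLE factors, no filter, other scores, all 36 libraries, length corrections, a replicate block and left-out embryos. The models were tested on simulated counts, where the trend called 58% of linear and 46% of late 2-fold changes at 400 ng/L. For 4-fold changes it called 90% and 86%. Of 141 trend calls 1 was false. The simulation held no length slope and no deviant embryo. Changes were placed only in genes of mean above 1 CPM, so recovery below that level, where ahrr and amh lie, was not tested.

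Named genes were the 15 higher and 15 lower trend genes with a symbol and the smallest p, up to 3 called members of each list, the 5 smallest p in curvature and in PCB40 against Control, the 5 smallest p of each position class, and all measured AHR genes. For members moved between PCB400 and PCB40, LOC genes, neighbours and Scorton Creek calls, further genes were named after their values were seen. The members and lists were chosen with earlier results of these data known. List names were matched by symbol or synonym, and 17443 of the 31637 genes had only a LOC number as symbol. A list can therefore miss genes of its pathway. The Scorton Creek methylmercury-diet group entered only the fit and the scaling of all 36 libraries and the cmc2 split. The values of 1 gene are not reported here.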

Additional observations from a re-analysis of the deposited data

Results flagged for a closer look

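In 28 of the 207 groups of 6 embryos examined, the highest or lowest embryo stood apart from the other 5 by more than Dixon's 95% limit. For normally distributed values chance gives such a gap in about 1 in 20 groups. The groups examined reuse the same 18 embryos and mostly hold unlogged CPM, so the 28 cannot be set against that share. PCB40 replicate 1 stood apart in 6 of the 28, with a length slope of 0.194 against −0.129 to −0.048 in the other PCB40 embryos. It had 66.7 CPM of mrps17 (others 101 to 108), 4.43 CPM of arnt (2.26 to 2.77), 26.9 CPM of arnt2 (10.9 to 15.7), 16.4 CPM of LOC105934264 (7.13 to 10.5) and 16.8 CPM of LOC105919898 (3.99 to 6.43).

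PCB400 replicate 6 stood apart for msmo1, at 22.8 CPM (9.57 to 12.9 in the other PCB400 embryos), AHR1, at 0.646 CPM (1.85 to 2.15), and LOC105931525, at 2.72 CPM (6.73 to 8.34). PCB400 replicate 2 had 33 CPM of ppp5c (55.5 to 62.5) and 4.78 CPM of arnt (2.59 to 3.41). PCB400 replicate 5 had 3.17 CPM of nqo1 (0.226 to 1.12), and replicate 4 had 17.8 CPM of alkbh6 (9.23 to 10.6).

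Among the other PCB40 embryos, replicate 5 stood apart for the neighbours si:dkey-238o13.4, at 0.972 CPM (0.0187 to 0.286), and LOC118565211, at 1.93 CPM (0.262 to 0.747). Replicate 2 did so for ncam3, at 4.87 CPM (0.512 to 1.79), and replicate 3 for s100b, at 413 CPM (339 to 361), LOC105916580, at 57.7 CPM (2.83 to 22.6), and LOC105915884, at 0.991 CPM (0.238 to 0.478).

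Among Control embryos, replicate 5 stood apart for acsl5, at 2.06 CPM (1.09 to 1.36), chchd4b, at 73.1 CPM (57.3 to 61.6), tefb, at 217 CPM (95.7 to 131), and cmc2, at 0.086 CPM (31.9 to 42.3). Replicate 1 had 0.0201 CPM of LOC105916579, which is the 1 read of that group, and 173 CPM of psme3 (192 to 199). Replicate 2 had 1810 CPM of gap43 (1280 to 1440), and replicate 6 had 0.401 CPM of ahrr (0.0244 to 0.108) and 66.3 CPM of LOC105917072 (48.6 to 55.1).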

How the results depend on the processing

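Of the 199 trend genes, 7 were called in every fit that tested them, and counts moved with most settings. The trend gave 1383 genes by DESeq2, 121 with no filter and 1861 with the dose itself as score. It gave 106 with the length slope as covariate and 566 without the 3 libraries of high length slope. The linear contrast of group means gave 726 and the fit of all 36 libraries 870. In both of these the trend is the contrast of PCB400 against Control, where the PCB40 mean has no weight. The 726 are therefore the PCB400 against Control calls given above and no separate trend result. Graded and late genes numbered 463 and 889 by DESeq2, 49 and 70 with no filter, 180 and 518 by the contrast, 269 and 1362 with the dose, 238 and 604 with 36 libraries and 231 and 331 without the 3 libraries. Late genes numbered 42 with the covariate. Early genes were 18 by DESeq2, 2 with no filter, 6 by the contrast, 9 with 36 libraries and 4 without the 3. Opposite genes were 13 by DESeq2, 22 by the contrast, 230 with the dose and 19 with 36 libraries. DESeq2 called 50 genes for curvature, 21 for PCB40 against Control, 1785 for PCB400 against PCB40, 1744 for PCB400 against Control and 16 only at 40 ng/L. Curvature gave 2 with 36 libraries, gpx4a not among them. Without the 3 libraries the counts were 203 for curvature, 2458 for PCB400 against PCB40 and 2043 for PCB400 against Control. The cause of these shifts was not tested.

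Higher genes were 51.8% of the trend calls, and 48.5% with RLE factors, 37.2% by DESeq2, 37.7% by voom and 38.2% with 36 libraries. They were 81.1% with the covariate and 49.7% with the length trend removed. Leaving out 1 embryo at a time gave 9 to 623 trend, 5 to 195 graded, 4 to 423 late, 0 to 4 early, 0 to 1 opposite and 0 to 2 curvature genes, 0 to 1 for PCB40 against Control, 42 to 2726 for PCB400 against PCB40 and 99 to 1474 for PCB400 against Control.

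Replicate numbers were not taken to pair the embryos: correlations of deviations were −0.31 to 0.1 for replicates 1 to 5, but 0.14 to 0.33 for the 3 pairs of replicate 6. With them as a replicate block 9 trend genes were called (4 graded, 5 late), 0 for curvature, 159 for PCB400 against PCB40 and 98 for PCB400 against Control. Trend calls lost with the block included those of ahrr, hspa4a, ppp5c, ptges3b, atp5mpl, actb1, tmsb2 and tefb.

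The AHR1 slope of −0.01 became 0.11 with the covariate, 0.1 without the 3 libraries and −0.08 to 0.06 with 1 embryo left out, being 0.02 without Control replicate 1 or 3, 0 without PCB400 replicate 2 and 0.06 without PCB400 replicate 6. The arnt2 slope of 0.19 became −0.05 and −0.03 in the first pair of these. Depth limits genes near 3 reads a library.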

Other observations

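The level of cmc2 took 2 values across all 36 libraries, a pattern chosen after its values were seen. It was 26.6 to 45.7 CPM in 14 libraries and at most 0.531 CPM in the rest, in the scaling of all 36 libraries. The high value was found in 5 Control, 0 PCB40 and 3 PCB400 embryos of New Bedford, and in 3 SCO Hg Fed, 1 SCO PCB40 and 2 SCO Control embryos. In NBH, 7 genes divided the embryos in the same way with a gap of at least 4-fold: cmc2, rab4a, LOC105920405, LOC105927892, LOC118559333, LOC118562941 and LOC118563006. The 7 include cmc2 itself, which set the split. For LOC105920405, LOC118559333 and LOC118563006 the Scorton Creek embryos also divided as they did for cmc2. For rab4a, LOC105927892 and LOC118562941 they did not, and 0 of the 7 passed the trend test.

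In the same scaling gpx4a ranged from 114 to 1020 CPM in SCO PCB40 and from 185 to 611 CPM in SCO Control embryos, so that the groups overlapped.

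Of the neighbouring pairs of trend genes in the RefSeq annotation, which numbered 6, 1 moved in opposite directions: jade2 had a slope of 0.64 and cdkn2aipnl one of −0.33. The pair foxo4 and si:zfos-80g12.1 had slopes of 0.55 and 0.5, and tuba8l3, LOC110369031 and LOC105931956, which lie in a row, had slopes of −0.42, −0.55 and −0.4. Of the 18 fits that left out 1 embryo, 3 called jade2, 7 cdkn2aipnl, 4 foxo4 and 7 si:zfos-80g12.1. The genes in a row were called in 7, 6 and 7 of these fits.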
